A study of Mus musculus with 16 samples.

Results

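The genes described here are 10 transporter genes that carry bile acids, phospholipid and other organic anions across the hepatocyte membrane, selected by gene name from a liver gene count table of 53714 genes. They comprise 5 genes of basolateral uptake from blood (Slc10a1, Slco1a1, Slco1a4, Slco1b2 and Slc22a7), 3 genes of canalicular export into bile (Abcb11, Abcb4 and Abcc2) and 2 genes of basolateral export back to blood (Abcc3 and Abcc4). All 10 were among the 13905 genes with enough reads to be tested. The study sequenced polyadenylated RNA from whole liver of male mice aged 9 weeks, in 4 groups of 4 libraries. The genotypes are written Slc25a47hep-/- (knockout below) and Slc25a47hep+/+ (control below), and all mice share the strain entry C57BL/6 Slc25a47tm1c(EUCOMM)Hmgu. Mice of each genotype were either fed or fasted overnight. The labels do not spell out "hep" and name no Cre driver. Slc25a47 encodes a liver-enriched carrier of the inner mitochondrial membrane.

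Bile acids circulate between liver and intestine, and the hepatocyte moves them mainly from blood to bile. Sodium-dependent and sodium-independent carriers on the sinusoidal (basolateral) side take up bile acids, bilirubin, steroid conjugates and drugs, and ATP-driven pumps on the canalicular side secrete bile acids, conjugates and phosphatidylcholine into bile. Abcc3 and Abcc4 lie on the basolateral side and return conjugates and bile acids to blood, a route best known from livers in which bile flow is impaired. Several of these genes are textbook targets of nuclear receptors such as FXR, CAR, PXR and PPARα, and the organic anion carriers of the Slco1a family differ between male and female mouse liver.

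Libraries held 19609584 to 27349613 reads assigned to genes, and the 10 transporters together took 0.415% to 0.509% of them. Reads that mapped to more than 1 place made up 32.0% to 45.8% of the table's total, and these reads were not assigned to any gene. Their share was 41.5% to 45.8% in fed control and 32.0% to 39.3% in fed knockout libraries. In fasted livers it was 40.4% to 45.7% in control and 32.2% to 34.8% in knockout libraries, so the genotypes did not overlap. The part of this difference in the genotype results was not tested. Slc25a47, the targeted gene, was at 461 to 836 CPM (counts scaled to library size) in fed control and 81.8 to 153 in fed knockout livers, and at 855 to 1139 in fasted control and 163 to 331 in fasted knockout livers, so every knockout library was below every control library of its feeding state. Replicates differed by more than counting noise in all 24 within-group pairs (chi-square per gene 6.79 to 91.7). A sum over 15 pancreatic acinar genes reached 1772 CPM in fasted control library 2 and 495 in fasted control library 4, against 5.02 to 79.5 in the other libraries. Calls on single transporters and the genotype counts of gene lists are therefore also given without libraries 2 and 4 where a call was lost. Hepatocyte markers such as Alb and Ttr were high throughout, with a summed level over 8 genes of 85235 to 135242 CPM. Because whole liver was sequenced, fewer hepatocytes and less RNA per hepatocyte cannot be told apart. Some markers of several cell types were called between genotypes (edgeR adjusted p under 0.05). Of all genes tested, 14.0% were higher and 16.9% lower in fed knockouts, and 13.8% and 14.5% in fasted knockouts. Of 8 stellate cell markers, 7 were higher in knockout livers when fed and 4 when fasted, with sums of 416 to 487 against 300 to 349 CPM and of 407 to 484 against 312 to 372 CPM. Of 8 hepatocyte markers, 4 were lower and none higher in knockout livers in each feeding state. Of 8 macrophage markers 1 was higher and of 4 erythroid markers 1 lower in each state, and none of 7 endothelial and 6 lymphocyte and neutrophil markers was called between genotypes. The part of these marker differences in the transporter results was not tested.

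The sequences just upstream of the start sites are shown first, for 3 genes that lie next to each other and 2 exporters. Slco1b2, Slco1a4 and Slco1a1 are neighbours on chromosome 6 that did not move together. Abcb11 was called between feeding states and not between genotypes, and Abcc4 between genotypes and not between feeding states. The RefSeq promoter table (build GRCm38.p6) held 8 of the 10 members, not Abcc3 and Slc22a7. Each sequence is the 250 bases before the start, read 5′ to 3′ on the gene's own strand, with motif matches in capitals.
Slco1a1, chr6:141946963-141947212, minus strand: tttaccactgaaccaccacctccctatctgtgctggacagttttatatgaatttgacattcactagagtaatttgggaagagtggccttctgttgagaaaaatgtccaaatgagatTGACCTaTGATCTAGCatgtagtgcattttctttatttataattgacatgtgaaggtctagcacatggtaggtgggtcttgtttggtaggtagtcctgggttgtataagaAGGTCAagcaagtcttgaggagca
Slco1a4, chr6:141856221-141856470, minus strand: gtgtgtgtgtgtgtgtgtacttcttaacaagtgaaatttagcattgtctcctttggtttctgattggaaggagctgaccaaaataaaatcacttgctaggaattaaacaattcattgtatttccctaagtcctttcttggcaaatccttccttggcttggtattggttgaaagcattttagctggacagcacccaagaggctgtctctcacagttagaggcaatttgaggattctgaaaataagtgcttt
Slco1b2, chr6:141629268-141629517, plus strand: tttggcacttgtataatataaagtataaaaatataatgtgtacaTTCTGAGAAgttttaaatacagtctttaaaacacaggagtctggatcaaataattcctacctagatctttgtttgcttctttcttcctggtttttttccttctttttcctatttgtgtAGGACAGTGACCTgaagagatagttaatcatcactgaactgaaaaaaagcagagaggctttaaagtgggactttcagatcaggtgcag
Abcb11, chr2:69342617-69342866, minus strand: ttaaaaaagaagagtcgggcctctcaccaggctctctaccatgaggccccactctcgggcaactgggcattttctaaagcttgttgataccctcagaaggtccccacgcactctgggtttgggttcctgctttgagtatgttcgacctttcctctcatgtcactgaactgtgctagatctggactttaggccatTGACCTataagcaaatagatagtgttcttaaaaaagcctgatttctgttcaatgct
Abcc4, chr14:118706220-118706469, minus strand: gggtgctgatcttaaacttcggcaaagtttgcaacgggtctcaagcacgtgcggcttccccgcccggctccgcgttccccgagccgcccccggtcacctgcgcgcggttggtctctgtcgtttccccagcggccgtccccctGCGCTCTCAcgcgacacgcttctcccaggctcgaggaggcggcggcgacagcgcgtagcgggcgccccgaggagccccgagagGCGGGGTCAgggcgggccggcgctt
The motifs searched on both strands were AGGTCA (the nuclear receptor half-site), IR-1 (an inverted repeat of 2 half-sites with a 1-base spacer, bound by FXR, searched with a degenerate pattern that allows other bases than AGGTCA in either arm), TTCNNNGAA (bound by STAT5), TGANNNNGC (the core of the antioxidant response element, bound by NRF2) and TGATGNAA (a composite site of ATF4 and C/EBP). The Slco1a1 stretch held AGGTCA at 134 and at 24 bases before the start, the first on the opposite strand, and TGANNNNGC at 127 bases before it. The Slco1b2 stretch held IR-1 at 88 bases before the start, of which only the arm on the opposite strand is AGGTCA, and TTCNNNGAA at 206. The Abcb11 stretch held AGGTCA on the opposite strand at 56 bases before the start. Together with the bases just before it, this site misses the IR-1 pattern by 1 base, so IR-1 was not counted there. Such near misses were not counted in other promoters, so how common they are is not known here. The Abcc4 stretch held TGANNNNGC on the opposite strand at 108 and at 25 bases before the start. No searched motif was found in the Slco1a4 stretch or in that of Abcb4. Among stretches not printed, that of Abcc2 held AGGTCA at 49 and TGANNNNGC at 98. Before the Slc10a1 start at 80968079 lay AGGTCA at 87 and, on the opposite strand, TGANNNNGC at 150. Before its start at 80968705 lay TTCNNNGAA at 53. Another Abcc4 start, at 118676931, had TGANNNNGC at 23. In all 32851 promoters of the table, the same length of sequence held AGGTCA in 14.0%, TTCNNNGAA in 7.02%, TGANNNNGC in 35.2%, TGATGNAA in 3.45% and IR-1 in 0.143%. A match describes these letters only and is not evidence of binding.

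Most uptake transporters were lower in knockout livers, Abcb4 and Abcc4 were higher, and Abcb11 differed with feeding but not detectably with genotype. Between fed knockout and fed control livers, 3 of the 10 transporters were higher (Slco1a4, Abcb4 and Abcc4) and 5 lower (Slc10a1, Slco1a1, Slco1b2, Slc22a7 and Abcc3) at an edgeR adjusted p under 0.05, where 14.0% of all genes tested were higher and 16.9% lower. Between the fasted genotypes, 2 were higher (Abcb4 and Abcc4) and 4 lower (Slc10a1, Slco1a1, Slco1b2 and Slc22a7), against 13.8% and 14.5% of all genes. Without fasted control libraries 2 and 4 the fed genotypes differed in 6 members (3 in each direction) and the fasted genotypes in 4 (2 in each direction). Fasting was followed by higher levels of 4 and lower levels of 3 in control livers (all genes: 16.2% and 18.3%). In knockout livers, 3 were higher and 3 lower after fasting (all genes: 21.1% and 20.3%). The genotype contrasts and the fasting contrasts share libraries, so their values are given side by side and are not independent of each other. When libraries were scaled to their total gene reads instead of by the trimmed mean of M values (TMM), the fed comparison called 3 members higher and 1 lower, and the all-gene median log2 difference became 0.21 in the fed and 0.20 in the fasted genotype comparison. Small genotype differences below are therefore relative to the bulk of other transcripts.

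**Figure D1:**
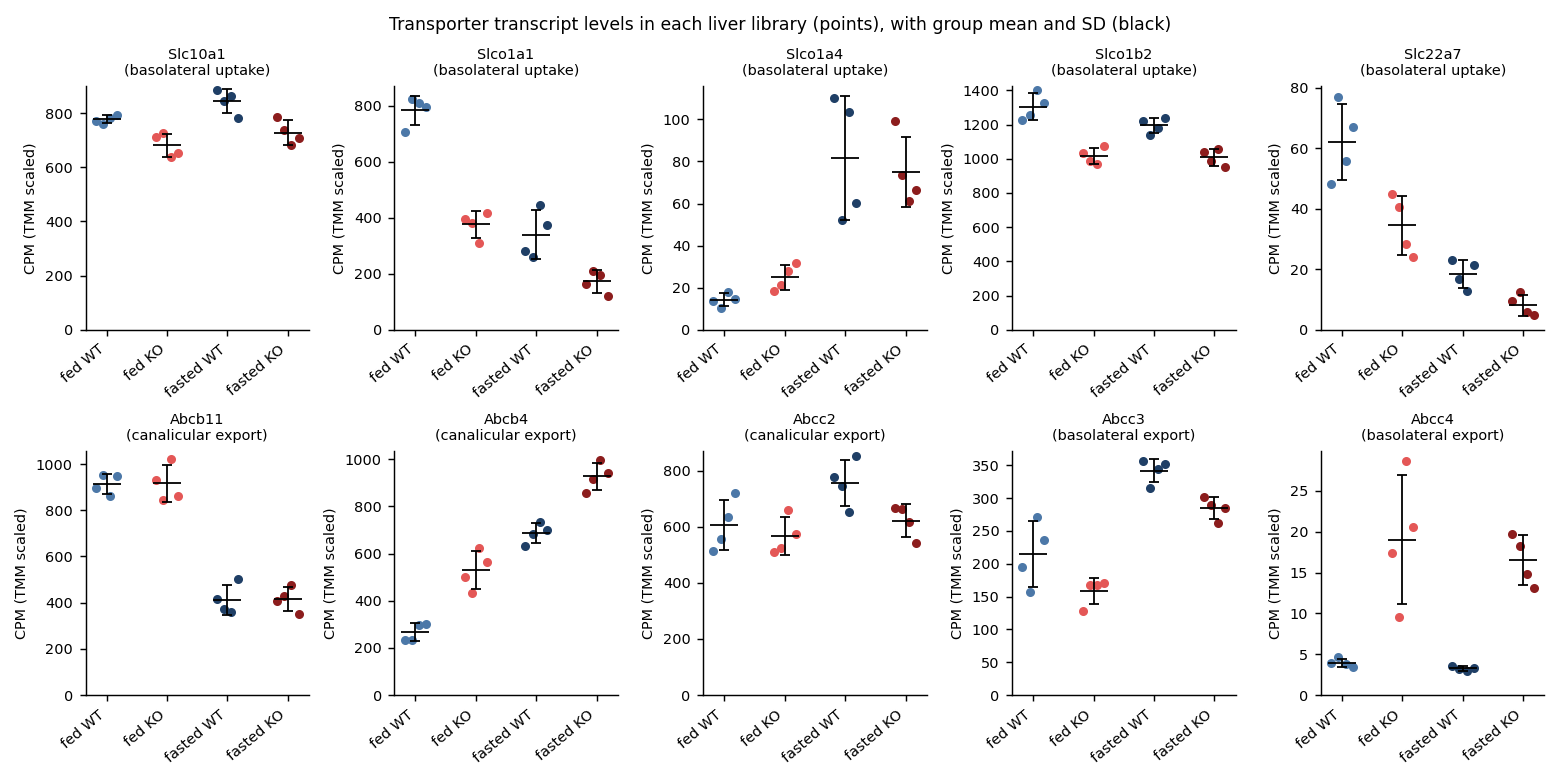
Transcript level of each transporter, in CPM after TMM scaling, in each of the 16 libraries (points) with the group mean and SD (black bars), on linear axes from 0 that differ between genes. Abcb11 splits by feeding state, Abcc4 splits by genotype, and Slc22a7 and Abcb4 step through all 4 groups without overlap.

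Slc10a1 encodes NTCP, the sodium-dependent carrier that takes up conjugated bile acids (chromosome 12, 80953183 to 80968705, minus strand, GRCm38). It stood at 771, 761, 783 and 795 CPM in the fed control libraries and at 711, 725, 638 and 654 in the fed knockout libraries. After fasting it stood at 887, 844, 863 and 782 CPM in control and 786, 738, 681 and 708 in knockout livers. All fed knockout libraries lay below all fed control libraries, whereas the highest fasted knockout library passed the lowest fasted control library by a narrow margin. The log2 difference was -0.19 ± 0.07 (SE; edgeR adjusted p = 0.0489) between fed and -0.21 ± 0.07 (adjusted p = 0.0303) between fasted genotypes, a decrease of 1.14-fold and 1.16-fold. These calls are weak: with library totals the fed difference turned to 0.033 and the fasted one shrank to -0.027, and the fed call was also lost with DESeq2 size factors (adjusted p = 0.0554). Leaving out any 1 of the 4 fed control libraries ended the fed call (adjusted p = 0.0672 to 0.103), as did leaving out fed knockout library 1, 3 or 4 (0.0565, 0.144 and 0.111), and the fasted call was lost without fasted control library 1, 2 or 3 (0.0773, 0.0583 and 0.0665) or fasted knockout library 2, 3 or 4 (0.0534, 0.0974 and 0.0740). Libraries outside the fed comparison, which share its fit, also moved the fed call past the threshold: fasted control library 2 or 3 (0.0577 and 0.0528), the pair 2 and 4 (0.0528), and any 1 fasted knockout library (0.0511 to 0.0607). The fasting difference was 0.12 ± 0.07 (adjusted p = 0.213) in control and 0.09 ± 0.07 (0.300) in knockout livers, and neither passed the test. Per kilobase of exon, Slc10a1 was the most abundant of the 10 transporters in every group, with group means of 310 to 384 FPKM (here the scaled CPM divided by exon length in kilobases).

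Slco1a1 encodes OATP1A1, a sodium-independent carrier of bile acids and steroid conjugates that is known as male-predominant in mouse liver (chromosome 6, 141907282 to 141946962, minus strand). Its levels were 707, 823, 809 and 796 CPM in fed control livers and 397, 381, 309 and 418 in fed knockout livers. In fasted livers they were 280, 259, 446 and 375 CPM in controls and 163, 212, 195 and 120 in knockouts. Within each feeding state every knockout library was below every control library, and fed knockout and fasted control libraries overlapped. The gene was 2.08-fold lower in knockout livers when fed (log2 -1.06 ± 0.18, adjusted p = 0.000364) and 1.97-fold lower when fasted (-0.98 ± 0.18, adjusted p = 0.000706). Fasting was followed by a decrease of 2.31-fold in control livers (-1.21 ± 0.18, adjusted p = 7.36e-05) and of 2.18-fold in knockout livers (-1.12 ± 0.18, adjusted p = 0.000129). The difference between the genotype effects in the 2 feeding states was 0.08 (95% interval -0.45 to 0.61), which did not pass the test. All 4 calls held under every alternative run at the 0.05 threshold. Along the 4 groups the mean FPKM fell from 149 ± 9.93 in fed control to 32.7 ± 7.61 in fasted knockout livers (SD, n = 4 each).

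Slco1a4 encodes OATP1A4, a relative of OATP1A1 with a similar range of substrates and a known induction by foreign compounds (chromosome 6, 141805440 to 141856199, minus strand). It was at 13.5, 10.4, 17.9 and 14.8 CPM in fed control livers and at 18.2, 21.3, 28.1 and 31.7 in fed knockout livers. In fasted livers it was at 110, 52.2, 104 and 60.1 CPM in controls and at 99.1, 73.6, 61.4 and 66.3 in knockouts. Every fasted library exceeded every fed library, and the fed genotypes did not overlap, while the fasted genotypes did. Fasting was followed by a 5.77-fold rise in control livers (log2 2.53 ± 0.29, adjusted p = 1.51e-05) and a 3.03-fold rise in knockout livers (1.60 ± 0.27, adjusted p = 0.000433). In fed livers the gene was 1.75-fold higher in knockouts (0.81 ± 0.28, adjusted p = 0.0430). That call was lost with no filter on low counts (adjusted p = 0.0938) and on leaving out fed control library 1, 2 or 4 (0.0874, 0.118 and 0.0752) or fed knockout library 3 or 4 (0.102 and 0.118), and also without fasted knockout library 2 or 4 (0.0549 and 0.0526), which share the fit. Between fasted genotypes the difference was -0.12 (95% interval -0.68 to 0.45, adjusted p = 0.778). The 2 low fasted control libraries, 2 and 4, are the pair with the high pancreatic sums. Without them the fasted genotype difference was -0.51 ± 0.23 (adjusted p = 0.147) and the fasting difference in controls 2.92 ± 0.24. The genotype effect in fasted minus that in fed livers was -0.93 ± 0.38 (edgeR adjusted p = 0.241), and -1.32 ± 0.31 (adjusted p = 0.0779) without that pair, and neither passed the test.

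Slco1b2 encodes OATP1B2, the main sodium-independent uptake carrier for bilirubin and unconjugated bile acids in mouse liver (chromosome 6, 141629518 to 141686646, plus strand). It measured 1230, 1258, 1405 and 1324 CPM in fed control livers and 1034, 986, 967 and 1075 in fed knockout livers. Fasted control livers had 1222, 1138, 1179 and 1240 CPM and fasted knockout livers 1038, 987, 1059 and 951. The 8 knockout libraries were all below the 8 control libraries. Its log2 difference was -0.36 ± 0.07 in fed (adjusted p = 0.000751) and -0.24 ± 0.07 in fasted livers (adjusted p = 0.0131), a decrease of 1.28-fold and 1.18-fold. With library totals these values were -0.14 (adjusted p = 0.115) and -0.058 (adjusted p = 0.539), and without fasted control libraries 2 and 4 the fasted call was lost at an adjusted p of 0.0504. Fasting differences were -0.13 ± 0.07 (adjusted p = 0.173) and -0.01 ± 0.07 (adjusted p = 0.924), with 95% intervals of -0.27 to 0.02 and -0.16 to 0.14.

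Slc22a7 encodes OAT2, a carrier of organic anions and nucleotides such as cGMP (chromosome 17, 46432183 to 46438457, minus strand). Fed control livers had 48.2, 77.1, 55.9 and 67.1 CPM and fed knockout livers 44.9, 40.5, 28.5 and 24.1. Fasted control livers had 23.1, 16.9, 12.7 and 21.4 CPM and fasted knockout livers 9.61, 12.3, 5.89 and 4.70. The groups were ordered fasted knockout, fasted control, fed knockout and fed control, and no neighbours in that order overlapped. The gene fell 3.36-fold with fasting in control livers (log2 -1.75 ± 0.30, adjusted p = 0.000528) and 4.25-fold in knockout livers (-2.09 ± 0.31, adjusted p = 0.000161). It was 2.27-fold lower in fasted knockout than in fasted control livers (-1.19 ± 0.31, adjusted p = 0.0129), a call that was lost without fasted control libraries 2 and 4 (-1.13 ± 0.40, adjusted p = 0.0669). In fed livers it was 1.8-fold lower in knockouts (-0.85 ± 0.29, adjusted p = 0.0393). The fed call was lost with library totals (adjusted p = 0.0982), with no filter (0.0711), without fed control library 2, 3 or 4 (0.105, 0.0567 and 0.0814), without fed knockout library 3 or 4 (0.106 and 0.104) and without fasted control libraries 2 and 4 (0.0573).

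Abcb11 encodes the bile salt export pump, which secretes bile acids into the canaliculus and sets bile acid-dependent bile flow (chromosome 2, 69238282 to 69342616, minus strand). It stood at 896, 953, 861 and 948 CPM in fed control livers and at 932, 844, 1023 and 864 in fed knockout livers. After fasting it stood at 415, 373, 358 and 501 CPM in control and 405, 430, 474 and 349 in knockout livers. All 8 fasted libraries were below all 8 fed libraries, and the genotypes overlapped in both feeding states. Fasting was followed by a decrease of 2.22-fold in control livers (log2 -1.15 ± 0.11, adjusted p = 1.51e-07) and of 2.21-fold in knockout livers (-1.14 ± 0.11, adjusted p = 2.03e-07). The genotype difference was 0.00 in fed livers (95% interval -0.22 to 0.22, adjusted p = 0.991) and 0.01 in fasted livers (-0.21 to 0.23, adjusted p = 0.958). With library totals the fed and fasted genotype values were 0.23 and 0.20, close to the shift of the median gene under that scaling. Exons of Abcb11 overlap an antisense gene, Gm13613, by 136 bases and a pseudogene, Gm13614, by 19 bases of a total exon length of 5146. The strand setting of the counting is not given in the sources used here, so reads in those overlaps cannot be assigned with certainty.

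Abcb4 encodes MDR2, the flippase that moves phosphatidylcholine into bile and thereby protects the bile duct lining from bile acids (chromosome 5, 8893717 to 8959231, plus strand). Its levels were 232, 232, 297 and 300 CPM in fed control livers and 499, 434, 623 and 565 in fed knockout livers. Fasted control livers had 632, 682, 732 and 700 CPM and fasted knockout livers 856, 915, 996 and 941. The groups rose in the order fed control, fed knockout, fasted control and fasted knockout, with no overlap between neighbours. In fed livers Abcb4 was 2.0-fold higher in knockouts (log2 1.0 ± 0.11, adjusted p = 2.60e-06), and in fasted livers 1.35-fold higher (0.43 ± 0.11, adjusted p = 0.00582). Fasting was followed by a rise of 2.59-fold in control livers (1.37 ± 0.11, adjusted p = 2.50e-08) and of 1.75-fold in knockout livers (0.81 ± 0.11, adjusted p = 1.35e-05). The difference between the genotype effects was -0.57 ± 0.15 (edgeR adjusted p = 0.0667; 95% interval -0.89 to -0.24), just outside the threshold. That difference passed it by DESeq2's Wald test (-0.59 ± 0.16, adjusted p = 0.0147), with no filter on low counts (adjusted p = 0.0489) and without fed knockout library 2 (adjusted p = 0.0202). Abcb4 shares sequence with its paralog Abcb1a: 2.87% of its 50-base words also occur in another gene, the highest share among the 10 transporters.

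Abcc2 encodes MRP2, the canalicular exporter of bilirubin glucuronides and glutathione conjugates (chromosome 19, 43782192 to 43840740, plus strand). It was at 513, 558, 635 and 719 CPM in fed control livers and at 508, 524, 660 and 572 in fed knockout livers. Fasted control livers had 776, 746, 651 and 852 CPM and fasted knockout livers 668, 663, 617 and 540. Each group overlapped its neighbours in the order of means, fed knockout, fed control, fasted knockout and fasted control. The genotype difference was -0.10 ± 0.11 (95% interval -0.34 to 0.14, adjusted p = 0.535) in fed livers. It was -0.28 ± 0.11 (adjusted p = 0.0697) in fasted livers, and this passed the threshold by DESeq2's Wald test (adjusted p = 0.0425) and without fasted knockout library 1 (0.0467) or fasted control library 3 (0.0374). The fasting difference in control livers, 0.32 ± 0.11 (adjusted p = 0.0346), was called, but the call was lost with library totals (0.0707), without fasted control libraries 2 and 4 (0.232), and on leaving out fed control library 1 or 2 (0.124 and 0.0927) or fasted control library 1, 2 or 4 (0.0688, 0.0574 and 0.109). In knockout livers it was 0.14 ± 0.11 (adjusted p = 0.354).

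**Figure D2:**
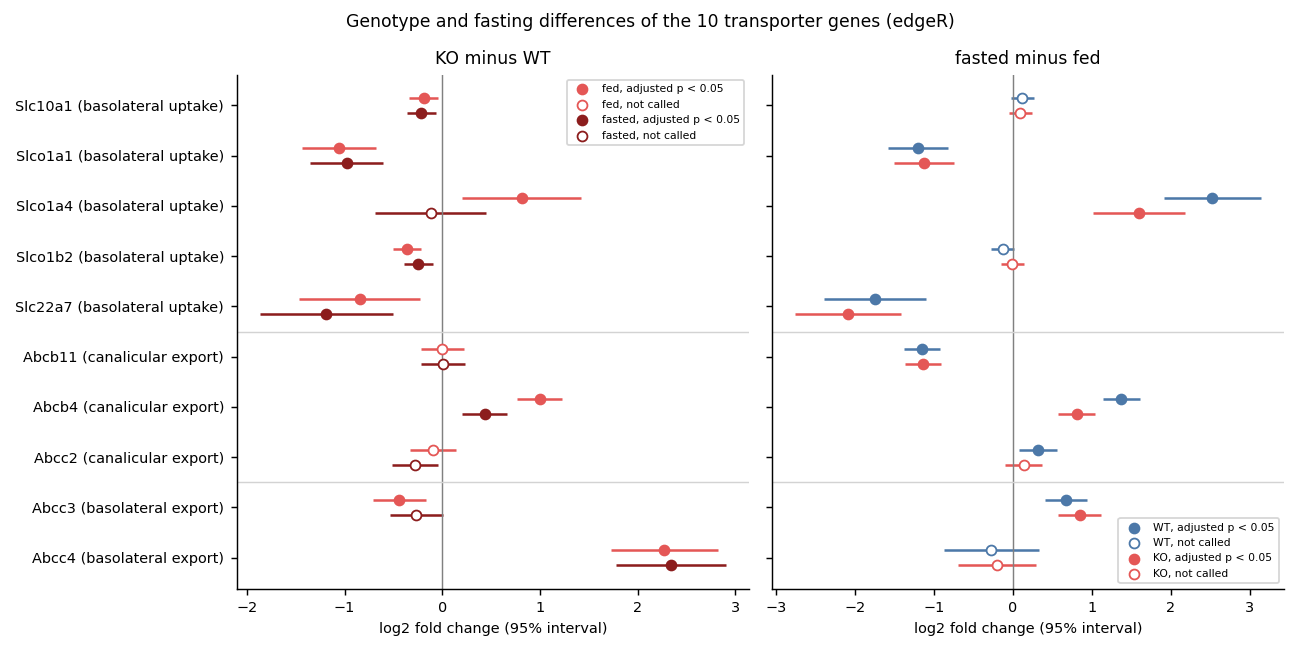
Log2 fold changes from edgeR (points) with 95% intervals (lines) for each transporter, knockout minus control at left and fasted minus fed at right, with filled points for an adjusted p under 0.05. The 5 uptake genes lie at or left of 0 in the genotype panel except Slco1a4 in fed livers, Abcc4 lies near 2.3 in both feeding states, and Abcb11 lies at 0 for genotype and near -1.15 for fasting.

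Abcc3 encodes MRP3, a basolateral exporter of glucuronides such as bilirubin glucuronide (chromosome 11, 94343295 to 94392997, minus strand). It measured 195, 157, 272 and 236 CPM in fed control livers and 128, 167, 167 and 171 in fed knockout livers. Fasted control livers had 356, 316, 344 and 352 CPM and fasted knockout livers 301, 290, 262 and 284. The fasted genotypes did not overlap, whereas the lowest fed control library lay among the fed knockout libraries. Fasting was followed by a rise of 1.59-fold in control livers (log2 0.67 ± 0.13, adjusted p = 0.000545) and of 1.8-fold in knockout livers (0.85 ± 0.13, adjusted p = 5.59e-05). The fed genotype difference was -0.44 ± 0.13 (adjusted p = 0.0150). It did not pass with library totals (adjusted p = 0.167), in a fit of the 8 fed libraries alone (0.0753), without fed knockout library 1 (0.0517) or without fed control library 3 (0.0621). The fasted genotype difference, -0.27 ± 0.13 (adjusted p = 0.131), passed in a fit of the 8 fasted libraries alone (adjusted p = 0.0187).

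Abcc4 encodes MRP4, a basolateral exporter of bile acids together with glutathione and of cyclic nucleotides (chromosome 14, 118482692 to 118706219, minus strand). It had 3.91, 4.60, 3.76 and 3.43 CPM in fed control livers and 17.4, 9.50, 28.6 and 20.6 in fed knockout livers. Fasted control livers had 3.61, 3.18, 2.99 and 3.26 CPM and fasted knockout livers 19.8, 18.3, 14.9 and 13.1. All 8 knockout libraries exceeded all 8 control libraries, and the widest spread was among the fed knockout libraries. The gene was 4.83-fold higher in knockouts when fed (log2 2.27 ± 0.26, adjusted p = 1.27e-05) and 5.07-fold higher when fasted (2.34 ± 0.26, adjusted p = 1.36e-05). Both calls held under every alternative run. The values rest on 59 to 115 reads per control library and 248 to 745 per knockout library. Fasting differences were -0.27 ± 0.28 (adjusted p = 0.496) in control and -0.20 ± 0.23 (adjusted p = 0.512) in knockout livers, and the difference between the genotype effects was 0.07 (95% interval -0.70 to 0.85). Without fed knockout library 2 the fasting difference in knockouts was -0.43 ± 0.15 and passed the test (adjusted p = 0.0351), and without fed knockout library 3 it was 0.065. Whole liver also holds bile duct cells, and the summed level of 8 cholangiocyte markers was 39.6 to 50.2 CPM in fed control, 49.3 to 58.6 in fed knockout, 35.3 to 49.4 in fasted control and 27.2 to 44.0 in fasted knockout livers, and the genotypes overlapped in each feeding state. Of the 6 cholangiocyte markers tested, none was called between the fed genotypes (median log2 difference 0.55). In fasted knockouts 1 was lower (median -0.40), where 14.5% of all genes were lower. The part of these cells in the Abcc4 difference was not tested.

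By role, the genotype differences of uptake genes were mostly negative and those of the exporters had both signs in each feeding state. Of the 5 uptake genes, 1 was higher and 4 lower in fed knockouts (median log2 difference -0.36), and 4 were lower and none higher in fasted knockouts (median -0.24). Without fasted control libraries 2 and 4 these counts were 1 higher and 2 lower when fed and 2 lower when fasted, with medians of -0.36 and -0.51. Of the 3 canalicular genes, 1 was higher and none lower in each feeding state (medians 0.00 and 0.01), and of the 2 basolateral exporters 1 was higher and 1 lower when fed and 1 higher when fasted. The median over all genes tested was -0.01 in fed and 0.01 in fasted livers. Of those genes, 14.0% were higher and 16.9% lower in fed knockouts, and 13.8% and 14.5% in fasted knockouts. With 3 and 2 genes, the counts of the export classes describe single genes. With library totals the uptake genes counted 1 higher and 1 lower in fed and 2 lower in fasted knockouts, with medians of -0.14 and -0.06. None of the 10 passed the test of a genotype effect that differed with feeding, where 1.07% of all genes were higher and 0.633% lower by edgeR. Of the members, 2 (Slco1a4 and Abcb4) had an unadjusted p under 0.05 in that edgeR test. They ranked at 1762 and 348 by p among the 13905 genes tested, so many other genes had a p that low. DESeq2's Wald test of the same difference called 1 member, Abcb4.

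Summed per kilobase of exon, the 5 uptake transcripts reached 799 ± 28.7 FPKM in fed control, 608 ± 31.2 in fed knockout, 712 ± 27.9 in fasted control and 584 ± 29.0 in fasted knockout livers (SD, n = 4 each). The 2 genotypes did not overlap in either feeding state: fed control libraries ranged from 759 to 824 and fed knockout libraries from 563 to 632. The 3 canalicular transcripts summed to 277 ± 17.3, 301 ± 29.7, 242 ± 21.0 and 252 ± 16.6 FPKM in the same order of groups, with overlap between the genotypes in both states. Within that sum Abcb11 fell with fasting from 178 to 80.0 FPKM in controls while Abcb4 rose from 28.3 to 73.2. The 2 basolateral exporters summed to 38.3 ± 8.70, 30.7 ± 3.88, 60.5 ± 3.21 and 52.5 ± 3.26 FPKM, and Abcc3 supplied nearly all of it. As a share of the 10 transcripts, uptake genes took 71.7% and 64.7% in fed control and fed knockout livers and 70.2% and 65.7% in the fasted groups. Shares do not depend on the scaling of libraries. The canalicular share ranged from 23.9% to 26.0% in fed control and from 29.3% to 36.5% in fed knockout libraries. In fasted livers it ranged from 21.9% to 26.3% in control and from 26.9% to 30.3% in knockout libraries. The genotypes thus did not overlap in this share, which also rises when the uptake sum falls. These sums and shares are descriptions with no test.

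**Figure D3:**
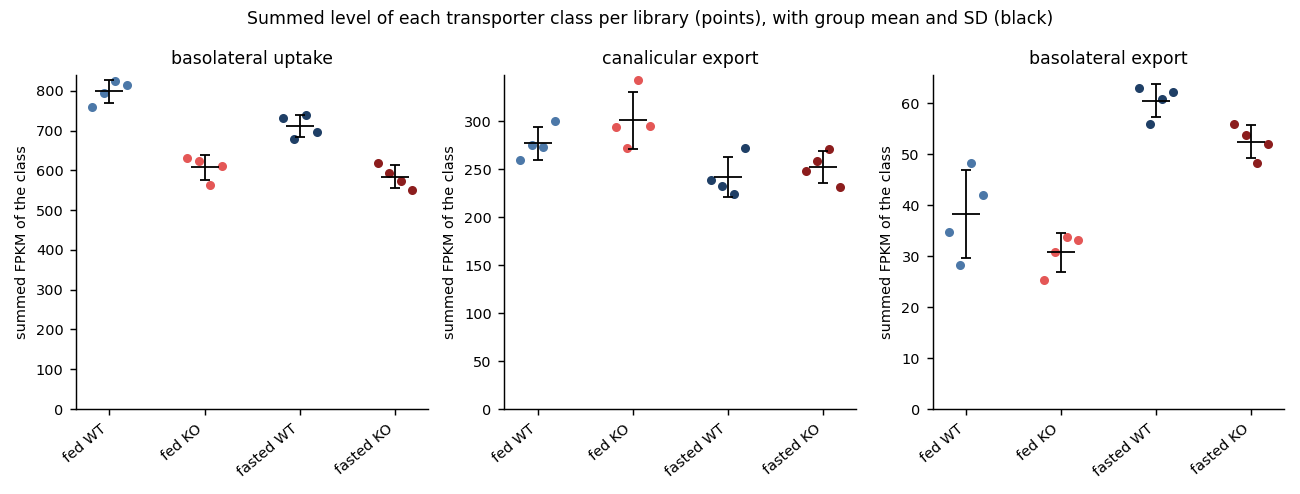
Summed FPKM of the 5 uptake, 3 canalicular and 2 basolateral export genes in each of the 16 libraries (points), with the group mean and SD (black), on linear axes from 0. Knockout libraries lie below control libraries of the same feeding state in the uptake panel and overlap them in the canalicular panel.

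Ratios within a library do not depend on the scaling of libraries. The ratio of Abcb4 to Abcb11 per kilobase was 0.160 ± 0.026 in fed control, 0.317 ± 0.036 in fed knockout, 0.932 ± 0.161 in fasted control and 1.24 ± 0.160 in fasted knockout livers. It ranged from 0.134 to 0.189 in fed control and from 0.282 to 0.359 in fed knockout libraries, and from 0.766 to 1.12 and 1.15 to 1.48 in the fasted groups, so none of the 4 groups overlapped. The ratio of Slco1a4 to Slco1a1, the neighbouring uptake genes, was 0.0149 ± 0.0032, 0.0553 ± 0.017, 0.203 ± 0.084 and 0.374 ± 0.120 in the same order. It ranged from 0.0104 to 0.0182 in fed control and from 0.0378 to 0.0748 in fed knockout libraries, and the fasted genotypes overlapped at 0.132 to 0.324 and 0.259 to 0.499. The ratio of Abcc4 to Abcc3 was 0.0173 and 0.108 in fed control and fed knockout and 0.00850 and 0.0517 in fasted control and fasted knockout livers. The ratio of Abcb11 to Slc10a1, the bile acid pump against the bile acid importer, was 0.503 ± 0.027 and 0.577 ± 0.078 in the fed groups and 0.210 ± 0.044 and 0.244 ± 0.039 in the fasted groups. It overlapped between genotypes and separated the feeding states.

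**Figure D4:**
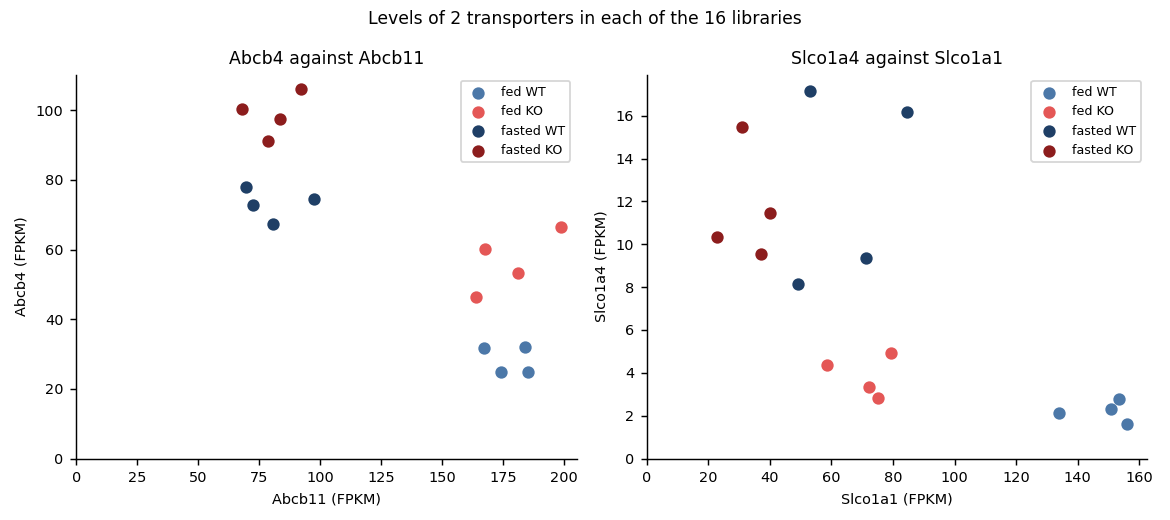
Abcb4 against Abcb11 (left) and Slco1a4 against Slco1a1 (right), in FPKM on linear axes from 0, with 1 point per library coloured by group. The groups form separate clouds at left, with Abcb4 from 24.8 to 32.0 FPKM in fed control and from 91.3 to 106 in fasted knockout libraries. At right every fasted library lies above every fed library in Slco1a4, and the fed control libraries lie apart from all others in Slco1a1.

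The order of levels within a group changed with condition. In fed control livers, from low to high, Abcc4 (0.614 ± 0.077 FPKM) and Slco1a4 (2.21 ± 0.48) stood apart at the bottom. Abcb4, Slc22a7 and Abcc3 (28.3 to 37.7) followed with overlapping libraries, and then Abcc2 (71.0), Slco1a1 (149), Abcb11 (178), Slco1b2 (265) and Slc10a1 (354) without overlap between neighbours. In fasted knockout livers Abcb4 (98.8 ± 6.20) stood above all members but Slc10a1 and Slco1b2, though its libraries overlapped those of Abcb11 (80.6 ± 10.1). Slco1a1 (32.7 ± 7.61) had dropped below Abcc3 (49.9 ± 2.92), and Slc22a7 (3.87 ± 1.66) overlapped Abcc4 (2.59 ± 0.48).

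Other carriers of the same membranes were counted beside the 10. With TMM and all 16 libraries, 14.0% of all genes tested were higher and 16.9% lower in fed knockouts. In fasted knockouts these shares were 13.8% and 14.5%. Of 15 other uptake carriers, 10 were tested, of which 1 was higher and 7 lower in fed knockouts and 1 higher and 4 lower in fasted knockouts (medians -0.55 and -0.39). With library totals these counts were 2 higher and 3 lower when fed and 2 and 4 when fasted, and without fasted control libraries 2 and 4 the fed count was 1 higher and 6 lower. Slco2b1, a further organic anion carrier of the hepatocyte, fell from 194 ± 8.48 to 96.7 ± 14.4 CPM in fed and from 158 ± 5.0 to 91.2 ± 8.33 in fasted livers (log2 -1.01 ± 0.09 and -0.79 ± 0.09, adjusted p = 1.91e-07 and 4.00e-06). Slc22a28 and Slc22a30, relatives of Slc22a7, were lower by -2.53 ± 0.20 and -0.87 ± 0.17 in fed and by -1.66 ± 0.29 and -0.92 ± 0.17 in fasted knockouts. The fasted value of Slc22a28 rests on low means, 1.85 CPM in control and 0.588 in knockout livers. Slco2a1, a prostaglandin carrier, was at -0.36 ± 0.08 and -0.42 ± 0.08. Slc22a27, another relative, was the member of that list that was higher in both feeding states, with 0.775 to 5.39 CPM in fed knockout against 0 to 0.147 CPM in fed control livers.

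Of 9 other canalicular transporters, 1 was higher and 7 lower in fed knockouts (all genes: 14.0% and 16.9%). In fasted knockouts 1 was higher and 5 lower (all genes: 13.8% and 14.5%), with medians of -0.38 fed and -0.45 fasted. With library totals 1 was higher and 3 lower in each state. Without fasted control libraries 2 and 4 the fasted count was 1 higher and 3 lower, as the calls on Abcb1b (adjusted p = 0.151) and Abcg8, a subunit of the sterol exporter (adjusted p = 0.0873), were lost. The higher gene was Abcb1a, a drug efflux pump, at 1.17 ± 0.29 CPM in fed control and 2.61 ± 0.57 in fed knockout livers (log2 1.17 ± 0.21, adjusted p = 0.000416) and 1.09 ± 0.20 higher on the log2 scale when fasted. Its paralog Abcb1b was lower, by -2.14 ± 0.27 and -0.79 ± 0.26, at low levels. Its means were 1.78 CPM in fed control and 0.402 in fed knockout livers, and 1.35 and 0.776 in the fasted groups. Slc47a1, a proton-coupled exporter of organic cations, was lower by -0.83 ± 0.10 and -0.64 ± 0.10, and Abcg2, an exporter of sulfated conjugates, by -0.38 ± 0.08 and -0.45 ± 0.08. Tmem30a, the accessory subunit of the phospholipid flippases, was lower by -0.34 ± 0.09 and -0.52 ± 0.09. Atp8b1, the canalicular aminophospholipid flippase, was lower in fed knockouts (-0.65 ± 0.13, adjusted p = 0.00104), and its genotype effect differed with feeding by 0.75 ± 0.18 (adjusted p = 0.0461). Of 4 other basolateral exporters tested, none was higher and 1 lower when fed (Abcc6, -0.44 ± 0.09), and none was called when fasted. With library totals 1 was higher when fed and 2 when fasted. Abcc6 also had a genotype effect that differed with feeding, by 0.51 ± 0.13 (adjusted p = 0.0469), and both of these differences with feeding were lost with DESeq2 size factors, with library totals and without fasted control libraries 2 and 4. Slc51b, the beta subunit of the basolateral bile acid exporter OSTα-OSTβ, stayed below 0.7 CPM in all libraries.

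**Figure D5:**
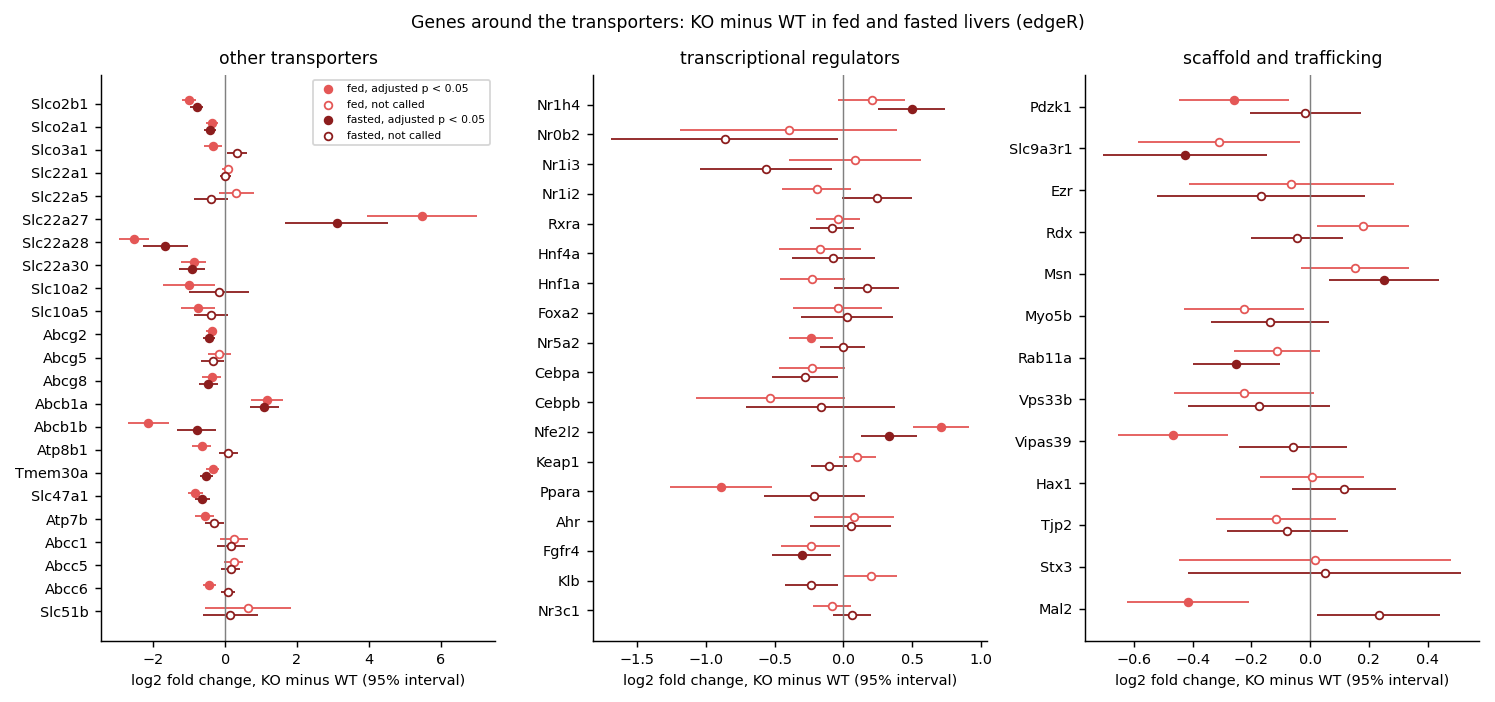
Knockout minus control log2 fold changes from edgeR with 95% intervals in fed (light) and fasted (dark) livers for other transporters, transcriptional regulators, and scaffold or trafficking genes, with filled points for an adjusted p under 0.05. Slco2b1, Slc22a28, Slc22a30, Abcb1b and Slc47a1 lie left of 0 and Abcb1a and Slc22a27 right of it in both feeding states.

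Of 18 genes tested that regulate transporter transcription, 1 was higher and 2 lower in fed knockouts (all genes: 14.0% and 16.9%) and 2 higher and 1 lower in fasted knockouts (all genes: 13.8% and 14.5%). With library totals 4 were higher and 1 lower when fed and 5 higher when fasted. Nfe2l2, which encodes NRF2, the activator of antioxidant genes, rose from 75.1 ± 9.11 to 123 ± 13.0 CPM in fed livers (log2 0.71 ± 0.10, adjusted p = 2.83e-05) and by 0.33 ± 0.10 in fasted livers. Ppara, which encodes the fatty acid receptor PPARα, was lower in fed knockouts (-0.89 ± 0.17, adjusted p = 0.00142), and Nr5a2 was at -0.24 ± 0.08. Nr1h4, which encodes the bile acid receptor FXR, was higher in fasted knockouts (0.50 ± 0.12, adjusted p = 0.00351), at 176 ± 25.0 against 125 ± 22.0 CPM, and the FGF receptor gene Fgfr4 was lower, at -0.30 ± 0.10. Without fasted control libraries 2 and 4, neither fasted call held (Nr1h4 0.35 ± 0.13, adjusted p = 0.0660, and Fgfr4 -0.13 ± 0.11, adjusted p = 0.437), which left 1 regulator higher and none lower. Nr0b2, the FXR target gene that encodes SHP, ranged from 39.5 to 68.6 CPM in fed control and from 25.9 to 65.3 in fed knockout livers. Of 13 scaffold and trafficking genes, 3 were lower in fed knockouts (Vipas39, Mal2 and Pdzk1, at -0.47, -0.42 and -0.26). In fasted knockouts 1 was higher (Msn, 0.25) and 2 lower (Slc9a3r1, which encodes NHERF1, -0.43, and Rab11a, -0.25). The calls on Msn (adjusted p = 0.213) and Slc9a3r1 (adjusted p = 0.249) were lost without fasted control libraries 2 and 4. With library totals 3 were higher and 1 lower when fed and 3 higher when fasted, so the direction for that list turns with the scaling.

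The target lists of receptors known to act on these transporters were counted in the same way. They were chosen with results of these data known and support no direction. Among all genes tested, 14.0% were higher and 16.9% lower in fed knockouts, and 13.8% and 14.5% in fasted knockouts. Of 11 CAR and PXR targets, fed knockouts had 5 higher and 1 lower, and fasted knockouts 4 higher and 1 lower, and with library totals 7 were higher and 1 lower when fed and 5 and 1 when fasted. Without fasted control libraries 2 and 4, where 12 were tested, 6 were higher and 1 lower when fed and 4 and 1 when fasted. Among them Cyp3a11 rose by 1.91 ± 0.20 and 1.93 ± 0.20, Cyp2b10 by 4.05 ± 0.61 and 3.54 ± 0.60, and Ces2a fell by 1.10 ± 0.14 and 1.0 ± 0.14. Of 12 NRF2 targets, 10 were higher and none lower in fed knockouts, among them Nqo1 (1.48 ± 0.17) and Gstm3 (2.23 ± 0.33), and 2 were higher and 2 lower in fasted knockouts (Gstm3 and Osgin1 at 2.32 and 1.43, Ugdh and Gclm at -0.79 and -0.36). With library totals the NRF2 targets counted 11 higher and none lower when fed and 5 higher and 1 lower when fasted, and without fasted control libraries 2 and 4 the fed count was 9 higher. Slco1a1 belongs with genes that are higher in male liver. Of 15 other male-biased genes, 15 were lower in fed and 14 in fasted knockouts (13 without fasted control libraries 2 and 4), with Elovl3, for instance, at -2.73 ± 0.20 and -1.93 ± 0.20. Of 15 female-biased genes tested, 13 were higher and none lower in fed knockouts and 6 higher and 1 lower in fasted knockouts, and Cyp17a1 was at 2.04 ± 0.23 and 1.05 ± 0.22.

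The genes whose log2 levels followed each transporter most closely over the 16 libraries were found by Pearson correlation among 10561 genes. The 16 libraries fall into 4 groups, so these values mostly describe shared group means. Slco1a1 was followed by Hao1 (r = 0.98), Zfp595 (0.98) and Sdha (0.97), and Slco1a4 by Cyp3a25 (0.98), Flvcr2 (0.97) and Rad51b (0.96). Slco1b2 was followed by Rdh7 (0.98), Cyp27a1 (0.95) and Cyp4v3 (0.94), and Slc10a1 by Apon (0.95), Sytl1 (0.94) and Dnajc19 (0.93). Slc22a7 went with Jmjd8, Edem1 and Ero1lb (0.97 each). On the canalicular side Abcb11 went with Nans, Eif4ebp2 and Fndc3a (0.97 each), Abcb4 with Grn, Cyp4a31 and Strbp (0.97 each) and Abcc2 with Pcsk7 (0.92), Lipg (0.90) and Fam160b1 (0.89). Abcc3 went with Dhrs4 (0.96), Decr2 (0.96) and Pgm2 (0.95), and Abcc4 with AI506816, Cd63 and Anxa2 (0.97 each). Among the transporters themselves, over the 16 libraries, Slco1a1 and Slc22a7 correlated at 0.90 and Slc22a7 and Abcb4 at -0.91. Within groups, after subtracting group means, the same pairs were at 0.23 and -0.44.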

How the data were processed

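Sequencing libraries were made from 500 ng of total liver RNA with a stranded polyadenylated-RNA kit, as the labels' protocols state. The authors deposited whole-number read counts per gene, without normalization. GRCm38, STAR 2.5.3a, HTSeq 0.9.1 and cutadapt 1.8 are named, per the submitters' processing notes, and the strand setting of the counting is not given in the sources used here. Lines that name no gene (reads mapped to several places, to no feature, which were 2.98% to 4.29%, or ambiguously, 1.05% to 1.65%) were left out of library sizes and tests. All 16 libraries entered a single edgeR 4.0.16 quasi-likelihood fit (R 4.3.3, robust, TMM factors 0.903 to 1.14, filterByExpr, 12 residual degrees of freedom) with a coefficient for each group, and p-values were adjusted by Benjamini-Hochberg over all 13905 genes tested, with calls at 0.05. SE is the size of the log2 fold change over √F, and intervals are 95%. The TMM factors did not overlap between genotypes. CPM uses TMM-scaled library sizes, and FPKM divides it by the merged exon length of GENCODE M21. The scripts were tested on simulated data. The labels do not say that each library is a separate mouse, so p-values measure the spread between libraries.

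The members and all gene lists were chosen with earlier results of these data known. Named genes are the 10 members, up to 4 called genes of each list and genotype contrast with the smallest p, and for each member the 3 genes with the highest correlation among those averaging at least 1 on the log2 CPM scale. Slc51b and Nr0b2 were named after their values were seen. Same-numbered libraries did not clearly deviate together (r = -0.17 to 0.25 over 24 pairs, against -0.33 to 0.30 over 72 other-numbered pairs). Alternatives were other scalings, no low-count filter, DESeq2 1.42.0, no robust estimation, a replicate block, single contrasts fitted alone, a threshold of 0.01, and libraries left out.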

Additional observations from a re-analysis of the deposited data

Results flagged for a closer look

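The level of Abcc3 in fed knockout library 1 was 128 CPM, set apart from the other 3 fed knockout libraries at 167 to 171 by a gap that exceeds Dixon's 95% limit for 4 values. Of 40 groups of 4 values examined (10 transporters in 4 groups), this was the 1 set apart, and chance gives about 1 in 20. Without that library the fed genotype difference of Abcc3 was -0.35 ± 0.13 (edgeR adjusted p = 0.0517) in place of -0.44 ± 0.13.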

How the results depend on the processing

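Over 24 settings and 50 fold changes, 1077 of 1190 recomputed values kept their direction and their side of the threshold, 58 lost a call, 9 gained one and 46 changed sign. The values that changed sign were not called in either fit, except Slc10a1 between fed genotypes, which was called with TMM and stood at 0.033 with library totals. With library totals 4 members were called between fed genotypes in place of 8, and Abcc2 in that comparison (0.12), Slco1a4 between fasted genotypes (0.067) and the Abcb11 difference of genotype effects (-0.033) changed sign. An adjusted p under 0.01 left 4 members between fed and 3 between fasted genotypes. With no filter on low counts 5 were called between fed genotypes and 1 (Abcb4) had a genotype effect that differed with feeding, and Abcb11 between fed genotypes (-0.013) and the Slc10a1 difference of genotype effects (0.0029) changed sign. DESeq2's Wald test also called 1 such difference, Abcb4. For Abcb11, DESeq2 size factors and the Wald test gave -0.0059 and -0.0059 between fasted genotypes and -0.014 and -0.014 for the difference of genotype effects. Without fasted control libraries 2 and 4 the Slco1a1 difference of genotype effects was -0.010 and Abcb11 between fed genotypes -0.00047. The share of all genes called was not counted under these settings or with single libraries left out. The member counts therefore do not show whether calls changed more or less than in the whole table. The cause of these changes was not tested.

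Leaving out single libraries gave 5 to 8 members called between fed genotypes and 0 to 1 for the difference of genotype effects. It moved Abcb11 from -0.055 to 0.039 between fed and from -0.060 to 0.12 between fasted genotypes, Slco1a4 from -0.30 to 0.059 between fasted genotypes, and, with fasting in knockouts, Slco1b2 from -0.042 to 0.018 and Abcc4 from -0.43 to 0.065. The difference of genotype effects ranged from -0.098 to 0.0078 for Slc10a1, from -0.031 to 0.24 for Slco1a1, from -0.062 to 0.12 for Abcb11 and from -0.15 to 0.34 for Abcc4.

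The replicate numbers in the titles gave no clear sign of pairing. Of 16 libraries, 6 correlated best with a library of their own number. The median r was 0.031 for same-numbered and -0.0055 for other-numbered pairs, with overlapping ranges. With the replicate number as a block, 1 transporter had a genotype effect that differed with feeding (Abcb4, edgeR adjusted p = 0.0261), and no other call on a transporter changed. Depth limits Abcc4 most, at 59 to 115 reads in control libraries.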
